A study of Mus musculus with 4 samples.

Results

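The genes described here encode subunits of the sodium pump, the calcium pumps of the P type and the small FXYD proteins that bind the sodium pump. Members were the probe sets whose single gene symbol in the platform annotation starts with Atp1a, Atp1b, Atp2a, Atp2b or Fxyd, which gave 17 of the 12422 probe sets on the array after control probe sets were set aside. They belong to 12 of the 8251 genes named by a probe set: 3 sodium pump beta subunits (5 probe sets), 3 calcium pumps of the endoplasmic reticulum (6 probe sets), 1 calcium pump of the plasma membrane (1 probe set) and 5 FXYD genes (5 probe sets). No probe set chosen in this way had a symbol starting with Atp1a, so the catalytic alpha subunits of the sodium pump were not analysed here. RNA came from the prefrontal cortex of female mice. The transgenic group overexpressed the human synaptic form of acetylcholinesterase (AChE), which hydrolyses the transmitter acetylcholine, and the control group were FVB/N mice. Each group had 2 arrays, each with RNA pooled from 4 mice. The labels used here do not state the promoter of the transgene, the number of transgenic lines, the strain background of the transgenic mice or the ages of the mice. Nor do they say that the pools of a group were drawn from separate animals, so the p-values reflect the spread between these pools, which may be only technical.

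The sodium pump (Na,K-ATPase) exports sodium and imports potassium at the cost of ATP, and so restores the ion gradients that neurons spend when they fire. Its alpha subunit carries out transport, its beta subunit is a glycoprotein needed to fold the pump and bring it to the membrane, and an FXYD protein can tune its affinity for ions. The SERCA pumps (Atp2a genes) return calcium to the endoplasmic reticulum, and the PMCA pumps (Atp2b genes) export it from the cell.

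Median intensity was 87.45 and 88.2 in the transgenic pools and 87.4 and 86.6 in the control pools. The mouse gene Ache itself had intensities of 365.3 and 355.6 in the transgenic pools, against 599.5 and 621.9 in the control pools (limma adjusted p = 0.00768). No source used here says whether its probe set also reads the transgene, so Ache does not check the labels. All 8 neuron markers with a probe set were above the intensity floor of 19.675 (the 25th percentile, to which lower values were raised before log2 changes were taken) on every array. Of 5 tested oligodendrocyte markers 0 passed, and of 7 microglia markers Tyrobp fell. The 2 tested blood markers rose, with values given below beside Atp2a3. Of all 5701 genes read from their brightest tested probe set, 9.49% passed in either direction. Choroid plexus, a tissue rich in sodium pumps, was represented by 4 dim markers, all under the intensity filter. Their summed intensity was 94.3 and 93.5 in the transgenic pools, against 137 and 125 in the control pools. Of the 4, 2 were above the floor on all arrays and Kl was at or under it on all arrays. The sums thus include values under the floor, and no change in choroid plexus can be read from them. The ratio of the 5′ to the 3′ control probe set, a measure of RNA integrity, was 0.402 and 0.6 for beta-actin in the transgenic pools, against 0.526 and 0.579 in the control pools. For Gapdh it was 0.903 and 1.02 in the transgenic pools, against 1.04 and 1.19 in the control pools, so the Gapdh ratio was lower in the transgenic group. The part of RNA integrity in the results was not tested.

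Of the 17 probe sets, 10 passed the filter on mean intensity (a mean log2 value above the 40th percentile) and were tested with limma, as transgenic minus control, 1 for each of 10 genes. Of these, 1 passed at an adjusted p under 0.05, that of Fxyd7, which was lower in the transgenic pools. Over all 7453 tested probe sets 10% passed in either direction, 5.46% as higher and 4.56% as lower, so the share of pump and FXYD probe sets that passed, 10%, was the same as the background. The median log2 change of the 10 was -0.19, against -0.03 over all tested probe sets. A log2 change below 0 was found for 8 of the 10, and 54.2% of all tested probe sets lay below 0. That count was also 8 of 10 with median scaling and with quantile normalization, and it was 5 of 11 without control replicate 1, where the median was 0.00. Both transgenic pools lay below both control pools for 5 of the 10 (29.9% of all tested probe sets) and above them for 1 (23.8%), and the pools of the other 4 genes overlapped. In either direction, 53.7% of all tested probe sets had pools that did not overlap. An unadjusted p under 0.05 was reached by 4 of the 10, all of them lower in the transgenic pools (at that level lay 24.3% of all tested probe sets, and 13.1% were lower).

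**Figure D1:**
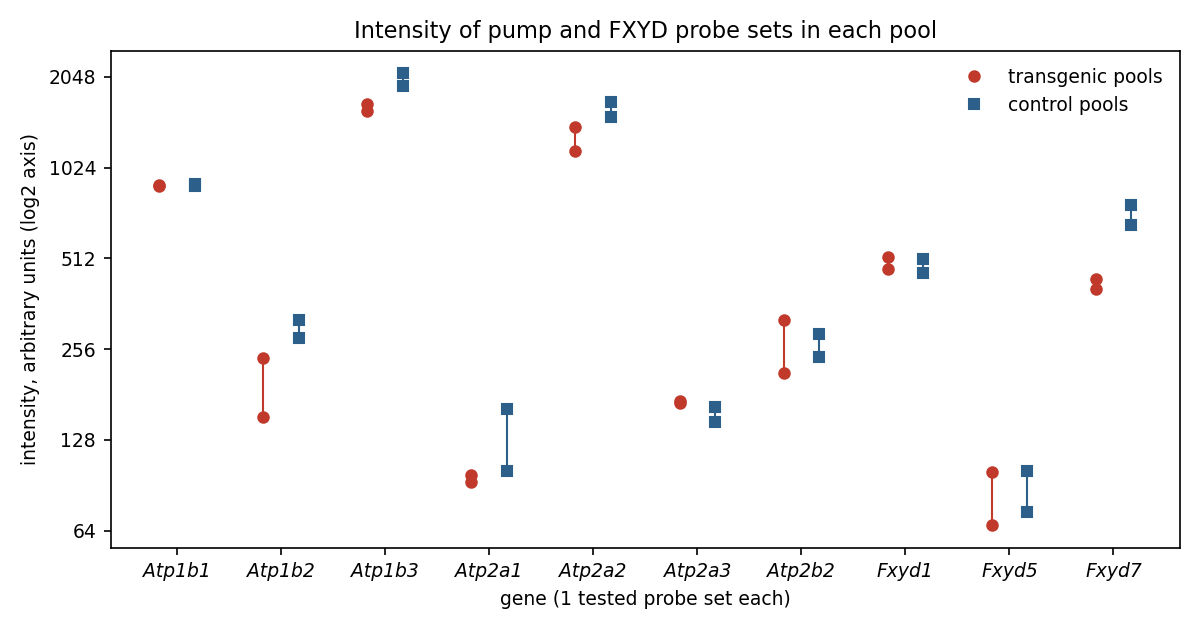
Intensity of each tested pump and FXYD probe set (log2 axis, arbitrary units) in the 2 transgenic pools (circles, left) and the 2 control pools (squares, right), with a line joining the pools of a group. Pools are to be compared within a gene, not between genes: the transgenic pools of Fxyd7 (437.6 and 404.4) lie well below its control pools (771.7 and 660.5), while those of Atp1b1 lie at the same height.

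Fxyd7 encodes an FXYD protein found mainly in the brain, which binds the sodium pump and lowers its affinity for potassium in expression systems. Its probe set, 99508_at, read 437.6 and 404.4 in the transgenic pools, against 771.7 and 660.5 in the control pools. The highest transgenic pool thus lay below the lowest control pool, and the gap between the groups was larger than the spread within either. The mean intensity was 421 ± 23.5 in the transgenic pools and 716 ± 78.6 in the control pools (SD, n = 2 each). Fxyd7 fell 1.70-fold (log2 change -0.76 ± 0.15 SE, 95% interval -1.09 to -0.44, limma adjusted p = 0.00966). Of the 7453 tested probe sets, 292 had a larger fall. The log2 change stayed between -0.88 and -0.65 in all 13 alternative settings, but Fxyd7 no longer passed without transgenic replicate 2 (limma adjusted p = 0.0806), without the intensity trend (0.0617) or without the filter on dim probe sets (0.166).

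The fall of Fxyd7 stood beside a lower signal of neuronal markers, which was not particular to neurons. The summed intensity of the 8 neuron markers was 19274 and 21092 in the transgenic pools, against 23164 and 22641 in the control pools. Among the 8, Camk2a and Snap25 fell and 0 rose, and the median log2 change of the 8 was -0.30. Of all 5701 genes read from their brightest tested probe set, 4.49% passed as lower. The median was -0.33 for 7 microglia markers, -0.23 for 7 astrocyte markers, 0.06 for 5 oligodendrocyte markers and 0.36 for 4 endothelial markers. The microglia markers summed to 2010 and 1808 in the transgenic pools, against 2320 and 2301 in the control pools. The part of neuron content in the fall of Fxyd7 was not tested. In RNA from whole tissue, fewer cells of a type and less RNA per cell cannot be told apart.

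The other 4 FXYD genes on the array did not pass, and 2 of them were too dim to be tested. Fxyd1 encodes phospholemman, a phosphorylated regulator of the sodium pump best known from heart and muscle. Its probe set 93040_at read 518.9 and 472.3 in the transgenic pools, against 511.1 and 458 in the control pools. The groups overlapped almost fully, and the log2 change was 0.03 ± 0.15 SE (limma adjusted p = 0.922), with a 95% interval of -0.29 to 0.36. Fxyd5 encodes dysadherin, an FXYD protein that also affects cell adhesion. It read 100.3 and 66.7 in the transgenic pools, against 100.7 and 73.8 in the control pools, with a log2 change of -0.08 ± 0.30 SE (limma adjusted p = 0.915). The 2 pools of each group differed more from each other than the groups did, and the 95% interval of -0.75 to 0.60 left room for changes of up to 1.69-fold lower and 1.52-fold higher.

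Fxyd2 and Fxyd3 lay under the intensity filter. Fxyd2, the gamma subunit of the kidney sodium pump, read 56.6 and 54.8 in the transgenic pools, against 15.6 and 48.5 in the control pools. The transgenic pools were the higher ones, but control replicate 1 lay under the floor of 19.675 and control replicate 2 close to the transgenic pools. Without the filter its log2 change was 0.85 ± 0.56 SE (limma adjusted p = 0.665). Fxyd3, an FXYD gene known from epithelia and tumours, read 18.2 and 6.2 in the transgenic pools, against 6.6 and 24.1 in the control pools, with 3 of the 4 arrays under the floor.

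In the RefSeq gene order of the mouse, Fxyd5, Fxyd7 and Fxyd1 are consecutive protein-coding genes, with Lgi4 and then Fxyd3 after them. The change of Fxyd7 was set against those of its neighbours, a comparison chosen after the values were seen, by fitting the difference between neighbouring tested genes within each array for all 5676 such pairs, of which 11.3% passed. Pump and FXYD genes stood in 18 of these pairs and 2 passed (11.1%), about the background share. The log2 change of Fxyd7 was 0.80 ± 0.21 SE lower than that of Fxyd1 (difference -0.80, 95% interval -1.26 to -0.33, limma adjusted p = 0.0309). With a log2 change of 0.03 for Fxyd1 and -0.76 for Fxyd7, this difference largely repeats the fall of Fxyd7 and is not separate evidence. The difference of Fxyd5 minus Fxyd7 was 0.69 ± 0.29 SE and did not pass (limma adjusted p = 0.157). The other pair that passed was Efnb3, an ephrin ligand, minus Atp1b2, the next tested gene (difference 1.06 ± 0.29 SE, limma adjusted p = 0.0316), where Efnb3 had a log2 change of 0.41. That difference was 0.64 without transgenic replicate 1 and no longer passed (limma adjusted p = 0.207), and it was also lost without the intensity trend (0.0944) and without the filter (0.273). The Fxyd7 difference from Fxyd1 passed in 8 of 13 alternative settings. It was lost without either transgenic pool (limma adjusted p = 0.0899 without replicate 1 and 0.0937 without replicate 2), without control replicate 1 (0.0892), without the intensity trend (0.0791) and without the filter (0.0906). Lgi4, a secreted protein of myelinating glia, had a log2 change of 0.21.

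**Figure D2:**
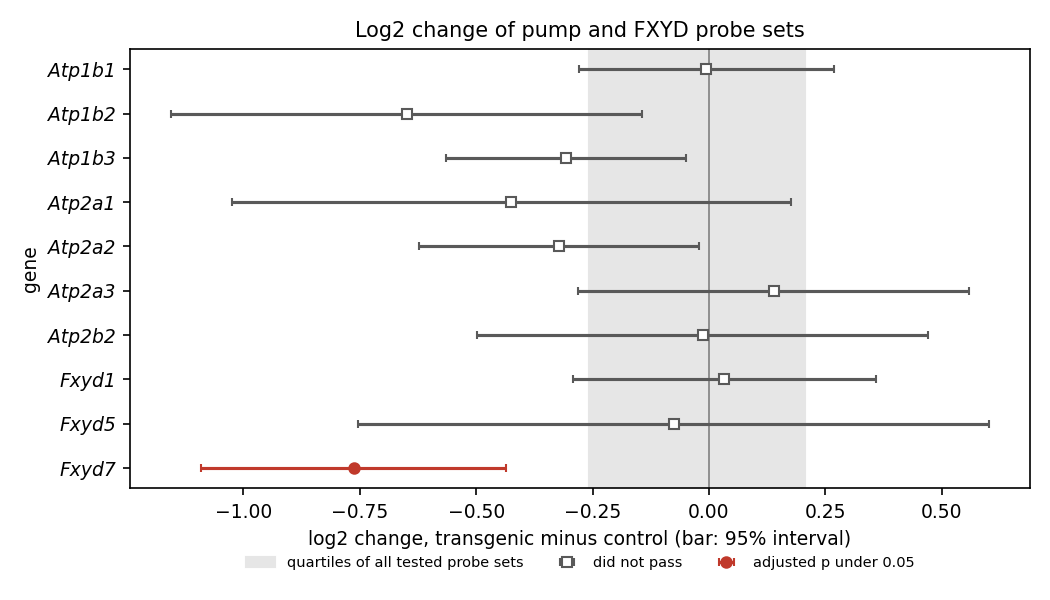
Log2 change (transgenic minus control, horizontal axis) of the 10 tested pump and FXYD genes with 95% intervals from limma. The grey band spans the quartiles of all tested probe sets, -0.26 to 0.21, and Fxyd7 (filled circle) is the gene that passed at an adjusted p under 0.05.

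The 3 beta subunits of the sodium pump had unlike estimates, and 0 of them passed. Atp1b1 encodes the beta subunit that is most widespread and abundant in neurons. Its probe set 161467_f_at read 896.1 and 889.9 in the transgenic pools, against 902.4 and 890.7 in the control pools. All 4 arrays lay within a narrow range, the groups overlapped, and the log2 change was -0.01 ± 0.12 SE (limma adjusted p = 0.985). The 95% interval of -0.28 to 0.27 corresponds to changes of at most 1.21-fold lower and 1.20-fold higher. The suffix _f marks a probe set whose probes can match related sequences. A second Atp1b1 probe set, 160500_at, was dim and not tested, with 39.7 and 12.2 in the transgenic pools, against 16.2 and 16.4 in the control pools. Transgenic replicate 1 was the 1 array above the floor there.

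Atp1b2 encodes the beta subunit also known as the adhesion molecule on glia (AMOG), which astrocytes express. Its probe set 93664_at read 152.1 and 238.5 in the transgenic pools, against 320.7 and 278.4 in the control pools. Both transgenic pools lay below both control pools, but transgenic replicate 2 was closer to the control pools than to transgenic replicate 1. The mean was 195 ± 61.1 in the transgenic pools and 300 ± 29.9 in the control pools (SD, n = 2 each). The log2 change was -0.65 ± 0.23 SE (95% interval -1.16 to -0.14), and it did not pass (limma adjusted p = 0.107, unadjusted p = 0.0171). Transgenic replicate 1 set much of its size: the log2 change was -0.33 without transgenic replicate 1 (limma adjusted p = 0.365) and -0.97 without transgenic replicate 2 (0.0523). In none of the 13 alternative settings did Atp1b2 pass. The second Atp1b2 probe set, 93665_at, read between 4.4 and 8.8, under the floor on all 4 arrays, and gave no level. Beside the Atp1b2 estimate, the summed intensity of 7 astrocyte markers was 7262 and 7917 in the transgenic pools, against 7803 and 8212 in the control pools. These sums overlapped. Of the 7, Aqp4 rose and S100b fell.

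Atp1b3, the remaining beta subunit, read 1666 and 1576 in the transgenic pools, against 1913 and 2102 in the control pools. The groups did not overlap. The log2 change was -0.31 ± 0.12 SE (95% interval -0.57 to -0.05), 1.24-fold lower in the transgenic pools, and it did not pass (limma adjusted p = 0.134, unadjusted p = 0.0246). The estimate moved between -0.38 and -0.24 over the 13 alternatives, without passing in any of them.

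Among the calcium pumps 0 of 4 tested genes passed. Atp2a2 encodes SERCA2, the main calcium pump of the endoplasmic reticulum in neurons and heart. Its probe set 99570_s_at read 1163 and 1397 in the transgenic pools, against 1507 and 1685 in the control pools. The groups did not overlap, but the spread within each was larger than the gap of the nearest pools. The mean was 1280.1 ± 166 in the transgenic pools and 1596 ± 126 in the control pools (SD, n = 2 each). The log2 change was -0.32 ± 0.13 SE (95% interval -0.62 to -0.02), 1.25-fold lower, and it did not pass (limma adjusted p = 0.173, unadjusted p = 0.0379). With 1 pool left out it lay between -0.45 (without transgenic replicate 2) and -0.19 (without transgenic replicate 1).

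Atp2a1 encodes SERCA1, the pump of fast skeletal muscle. Its probe set 98126_s_at read 92.9 and 98.1 in the transgenic pools, against 162.2 and 101.3 in the control pools. Control replicate 1 stood apart, while control replicate 2 lay next to the transgenic pools. The log2 change was -0.43 ± 0.27 SE (limma adjusted p = 0.38), and it was -0.09 without control replicate 1. The summed intensity of 7 markers of skeletal muscle was 433 and 458 in the transgenic pools, against 356 and 457 in the control pools, with 0 of 4 tested markers called and Tnni2 at or under the floor on all arrays. Probe sets with the suffix _s, such as those of Atp2a1 and Atp2a2, can also match more than 1 transcript of a family. A second Atp2a1 probe set read 6.5 or less on every array.

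Atp2a3 encodes SERCA3, known from blood cells and some epithelia. Its probe set 103935_at read 169.5 and 172.8 in the transgenic pools, against 147.2 and 164.1 in the control pools. The transgenic pools were both higher, by less than the difference between the control pools. The log2 change was 0.14 ± 0.19 SE (95% interval -0.28 to 0.56, limma adjusted p = 0.71). The other 2 Atp2a3 probe sets were not tested: 93403_at read 4.5 or less, and 93404_g_at read 21.8 and 18.9 in the transgenic pools, against 23.7 and 17.1 in the control pools. Of 4 listed blood markers, 2 had a probe set, and these were higher. The summed intensity of Hba-a1 and Alas2 was 8473 and 6945 in the transgenic pools, against 2779 and 2396 in the control pools, and both genes rose. The part of blood in the values of Atp2a3 was not tested.

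Atp2b2 encodes PMCA2, a plasma membrane pump of neurons and of the hair cells of the ear. It read 213.1 and 319.6 in the transgenic pools, against 287.7 and 241.3 in the control pools. The 2 transgenic pools enclosed both control pools, so no direction can be read. The log2 change was -0.01 ± 0.22 SE (95% interval -0.50 to 0.47, limma adjusted p = 0.981), and it was 0.28 without transgenic replicate 1 and -0.31 without transgenic replicate 2.

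**Figure D3:**
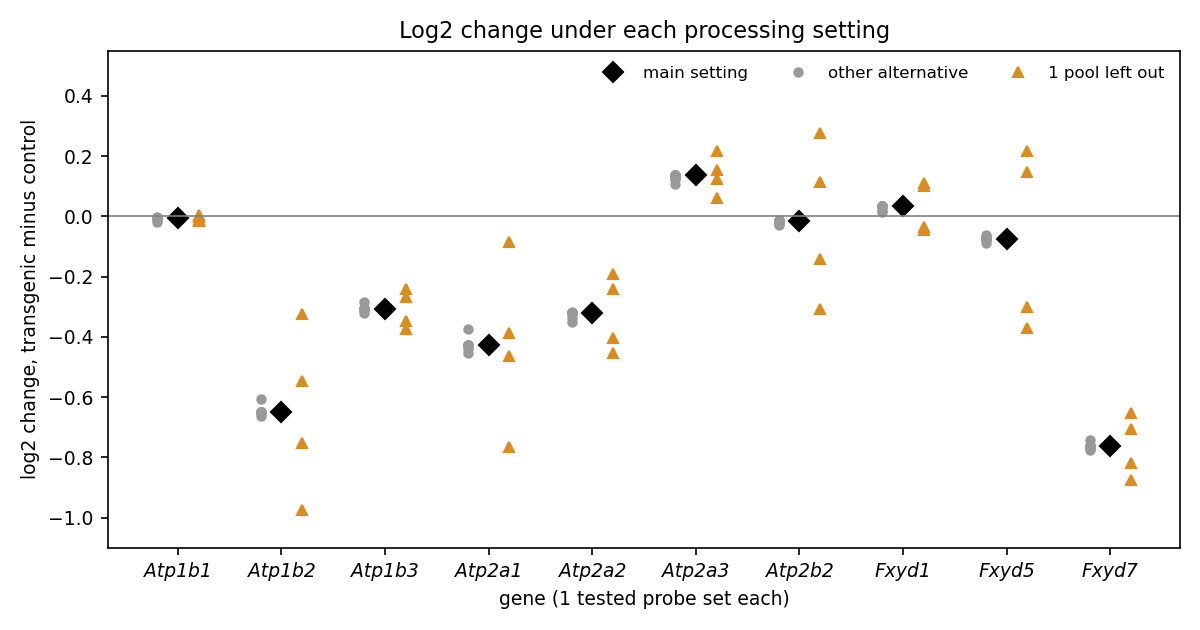
Log2 change (transgenic minus control, vertical axis) of the 10 tested genes in the main setting (diamonds), with 1 pool left out (triangles) and under the other alternatives (circles). Fxyd7 stays between -0.88 and -0.65, and Atp1b2 moves between -0.97 and -0.33 as pools are left out. Atp2b2 and Fxyd5 take both signs, as do Fxyd1 (-0.05 to 0.11) and Atp1b1 (-0.019 to 0.004) over narrower ranges.

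Beyond the pumps themselves, a list of 53 genes covered other carriers of sodium, potassium, chloride and bicarbonate, other P-type ATPases, calcium release channels and calcium-binding proteins. Of these, 33 had a probe set and 27 were tested, each read from its brightest tested probe set. In the transgenic pools 5 rose and 1 fell, 22.2% of those tested, against 9.49% of all 5701 genes read in this way (5% higher and 4.49% lower). The control means of 2 of the 5 that rose, Slc4a4 and Itpr2, lay under the filter level (an intensity of 49.4). These 2 genes were tested only because their transgenic pools were high, so their calls give the list's count no weight. Of the 24 genes above the level in both groups 3 rose and 1 fell. The 9.49% can include genes above the level in 1 group only. No share was taken over all genes above it in both groups, so no excess can be read from the 24. All 10 tested pump and FXYD genes were above the level in both groups. The median log2 change of the list was -0.02, against -0.03 over all tested probe sets. The list was chosen with earlier results of these data known, so its count is a description.

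The list was made of ion transport and calcium genes, so what the genes that passed have in common was set by its choice. Slc8a1, the sodium-calcium exchanger that uses the sodium gradient to export calcium, read 328.1 and 405.5 in the transgenic pools, against 154.1 and 187.8 in the control pools, and rose 2.14-fold at 99524_at (log2 change 1.10 ± 0.19 SE, limma adjusted p = 0.00502). Its other 2 probe sets were too dim to be tested and their groups overlapped: 93168_at read 20.2 and 26.5 in the transgenic pools, against 20.3 and 22.3 in the control pools, and 99525_at read 13.1 and 15.1 in the transgenic pools, against 6.9 and 34.6 in the control pools. Slc4a4, a sodium-bicarbonate cotransporter of astrocytes, read 128.7 and 128.8 in the transgenic pools, against 38.6 and 32.6 in the control pools. It rose 3.63-fold (limma adjusted p = 0.00282), or 2.53-fold with the floor at the 40th percentile. As it was tested only because its transgenic pools were high, its call carries no weight as a test. Atp2c1, a calcium and manganese pump of the Golgi apparatus, read 837.4 and 642.3 in the transgenic pools, against 359 and 446.2 in the control pools, and rose 1.83-fold (log2 change 0.87 ± 0.18 SE, limma adjusted p = 0.0126).

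Itpr2, the inositol trisphosphate receptor of astrocytes that releases calcium from the endoplasmic reticulum, had the largest change of the list. Like Slc4a4, it was tested only because its transgenic pools were high, so its call carries no weight as a test. It read 180.1 and 161.8 in the transgenic pools, against 32.7 and 29.5 in the control pools, at 101441_i_at, and rose 5.50-fold (log2 change 2.46 ± 0.27 SE, limma adjusted p = 0.00032). No array lay at or under the floor of the main setting at this probe set, so the 5.50-fold was not set by that floor. A floor at the 40th percentile raised the control values, and the rise was then 3.35-fold (limma adjusted p = 0.00131). The other 3 Itpr2 probe sets were too dim to be tested. 101442_f_at read 32.4 and 33.1 in the transgenic pools, against 6.7 and 6.2 in the control pools, and 94565_at read 22.8 and 19 in the transgenic pools, against 6.8 and 11 in the control pools. 96420_at read 6.2 and 8.4 in the transgenic pools, against 5.7 and 12.3 in the control pools, under the floor on all arrays and with overlapping groups. Calb2 encodes calretinin, a calcium-binding protein of interneurons, and read 1287 and 1003 in the transgenic pools, against 828.7 and 553.9 in the control pools. It rose 1.68-fold (limma adjusted p = 0.0445), with pools that did not overlap but differed widely within each group, and it was lost in 8 of 13 alternative settings.

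The single fall was Slc12a5, the neuronal potassium-chloride cotransporter KCC2, which read 53.3 and 55.1 in the transgenic pools, against 129.3 and 114.6 in the control pools. It fell 2.25-fold (log2 change -1.17 ± 0.26 SE, limma adjusted p = 0.0196). Its counterpart Slc12a2 (NKCC1), which imports chloride, had a log2 change of 0.42 ± 0.15 SE and did not pass (limma adjusted p = 0.111). Ryr2, a ryanodine receptor that releases stored calcium, had 0.04 ± 0.15 SE (limma adjusted p = 0.898). Without transgenic replicate 1 the calls for Atp2c1, Calb2 and Slc12a5 were lost (limma adjusted p = 0.105, 0.246 and 0.0718), and without transgenic replicate 2 those for Slc8a1, Slc12a5 and Calb2 (0.0746, 0.0732 and 0.11). Without control replicate 1 the call for Slc12a5 was lost (0.0837), and without control replicate 2 that for Calb2 (0.133). Without the intensity filter 0 of the 6 passed, with a limma adjusted p between 0.0932 (Itpr2) and 0.428 (Calb2), and without the intensity trend the calls for Atp2c1 (0.0826) and Calb2 (0.167) were lost. Markers of endothelium, a cell type that also expresses exchangers and calcium release channels, summed to 939 and 851 in the transgenic pools, against 650 and 670 in the control pools, and 1 of 4 tested, Flt1, rose. Their part in these rises was not tested.

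**Figure D4:**
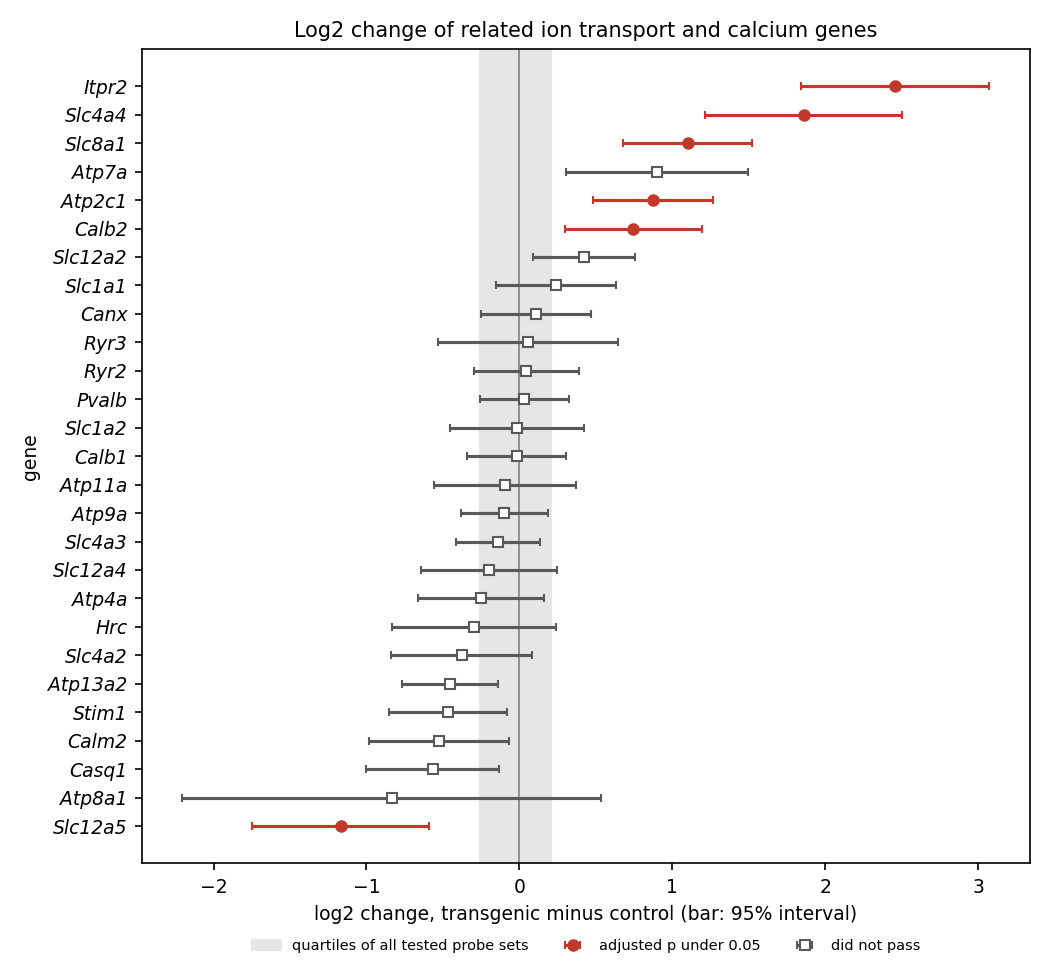
Log2 change (transgenic minus control, horizontal axis) with 95% intervals for the 27 tested genes of related ion transport and calcium handling. Filled circles passed at an adjusted p under 0.05 (5 higher and 1 lower), open squares did not. The grey band spans the quartiles of all tested probe sets. Of the 5 higher genes, Slc4a4 and Itpr2 were tested only because their transgenic pools were high.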

How the data were processed

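The deposited values are 1 intensity for each probe set and array, a unit inferred from their range, since no header or label names it. The authors' scaling shows in trimmed means of 249.5 to 249.6 on all arrays. No source used here says how intensities were derived. After 66 control probe sets were left out, 12422 remained. Symbols were updated through gene identifiers to RefSeq (GRCm38.p6), which changed 0 of the 17 member symbols. Positions are left out, as the probes come without a genome build. Values were floored at the 25th percentile (19.675) and log2-transformed, and 7453 probe sets with a mean above the 40th percentile were compared by limma 3.58.1 under R 4.3.3 (lmFit, eBayes with an intensity trend, two-sided, 2 residual degrees of freedom), with Benjamini-Hochberg adjustment over all of them and a threshold of 0.05. Folds are ratios of geometric means. The number of arrays limits the precision. No gene of the family had 2 tested probe sets, so the planned comparison of probe sets of 1 gene gave 0 pairs for it. Every member probe set is named or counted. Of the related list, the genes that passed, Slc12a2 and Ryr2 are named. Itpr1, Pln and Slc8a2, also in that rule, were not analysed here. Members, lists and tests were chosen with earlier results of these data known. No batch is given by the labels, and one that ran with the groups cannot be told apart.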

Additional observations from a re-analysis of the deposited data

How the results depend on the processing

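Under 13 alternatives, Fxyd7 remained below 0 and passed in 10. The count of pump and FXYD probe sets that passed, 1 in the main setting, was 0 without the intensity filter and 0 without the intensity trend, and 0 to 1 with 1 pool left out. Over all probe sets 747 passed, against 48 without the filter, 395 without the intensity trend, and 389 to 745 with 1 pool left out (389 without transgenic replicate 2 and 432 without transgenic replicate 1). Of the related genes 6 passed, against 0 without the filter, 3 with the filter at the 60th percentile, which tested 19 of them, and 3 to 6 with 1 pool left out (3 without transgenic replicate 1). Of 1213 pairs of tested probe sets of 1 gene, 139 (11.5%) changed unequally, and 38 of 3311 without the filter; with 1 pool left out the range was 99 to 140. Without the filter, probe sets at or under the floor on all 4 arrays also enter the fit. Their floored values have no spread: Atp1b2 93665_at had a log2 change of 0 ± 0.00098 SE. As limma estimates spread partly from all tested probe sets, results without the filter rest on another estimate of spread. The causes were not tested. A floor at the 40th percentile, a pseudocount of 16, median scaling, quantile normalization and a robust prior kept all 4 counts within 1.5 times.

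The titles number the pools 1 and 2 in both groups, but nothing says that a number marks a shared batch, and the deviations of pools with the same number correlated at 0.0555 across probe sets. With the replicate number as a block (replicate block), 892 probe sets passed in all, 1 pump or FXYD probe set (Fxyd7), 6 related genes and 208 pairs.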

Other observations

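Outside the sodium and calcium pumps of the plasma membrane and reticulum, 14 probe sets of 11 other P-type ATPase genes were on the array, 9 of them tested, and 1 rose (Atp2c1) and 0 fell by limma, with a median log2 change of -0.10. That is 11.1% of those tested, against 10% of all tested probe sets. These genes were grouped after the data were seen, and some stand in the related list above. Atp7a, a copper pump, read 118.9 and 117.1 in the transgenic pools, against 73.6 and 54.5 in the control pools, and did not pass (log2 change 0.90 ± 0.27 SE, limma adjusted p = 0.0654). Its second probe set, 102854_s_at, read 25.3 and 45.4 in the transgenic pools, against 1.7 and 6.6 in the control pools, and lay under the filter. Atp13a2, a lysosomal ATPase, read 527.6 and 525.6 in the transgenic pools, against 666.6 and 779.9 in the control pools, and did not pass (log2 change -0.45 ± 0.14 SE, limma adjusted p = 0.0771). Atp8a1, a lipid flippase, read 12.6 and 96.2 in the transgenic pools, against 72.4 and 83.3 in the control pools, so transgenic replicate 1 alone was low.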
